A study of Mus musculus with 9 samples.

Results

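Zeb1 and Zeb2 are the 2 members of the ZEB family, transcription factors that carry a pair of zinc-finger clusters around a homeodomain and that mostly repress their targets. The accessible regions around both genes were followed in tumor-specific CD8 T cells from the lymph nodes that drain a melanoma. A region was counted for a member if it overlapped the body of the gene on mm10, or if the nearest end of any protein-coding gene, within 100 kb, was that of the member. Of 62963 regions in all, 22 met this rule, 12 at Zeb2 and 10 at Zeb1. The median of 16074 genes with any region was 2, and Zeb2 had more than 94.8% and Zeb1 more than 92.0% of those genes.

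ZEB proteins bind E-boxes through both zinc-finger clusters and recruit CtBP corepressors, and ZEB2 was first found as a partner of Smad proteins, which carry TGF-β signals. In CD8 T cells, ZEB2 acts with T-bet (Tbx21) in the terminal effector program, and ZEB1 is known for a role in memory cells and for repressing Il2. MicroRNAs of the miR-200 family target both Zeb mRNAs, and in T cells TGF-β has been placed upstream of the balance between the ZEB pair.

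Open chromatin was read by ATAC-seq, which relies on insertion of sequencing adapters by a hyperactive transposase, Tn5. The cells were P14 CD8 T cells, whose transgenic receptor recognizes a peptide of the LCMV glycoprotein. Per the labels, 500000 naive P14 cells, negative for CD44 and positive for a TCF-1-GFP reporter, were given to C57BL/6 mice 8 days after 500000 B16.F10 melanoma cells made to express that glycoprotein, and the libraries are tagged as WT. All groups share this transfer and tumor and differ in time: day 4, day 8 and day 21 after the transfer, with 3 libraries each of 50000 cells sorted as CD45.1+CD44+CD8. The sort selects activated donor cells, no group lacked a tumor, and no source used here gives the age of the mice. Each library came as 1 list of peaks.

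Day 4 lists held 19499 to 22250 peaks, day 8 lists 47513 to 50835 and day 21 lists 46492 to 51671. They called 28.6 to 32.9%, 72.4 to 77.9% and 70.7 to 79.6% of the 62963 regions on days 4, 8 and 21. Read totals are not listed. As a sign of depth, the lowest local background of any peak in a list, recovered from the deposited values, was 2.62 to 3.38 tags on day 4, 2.14 to 2.63 on day 8 and 2.33 to 3.08 on day 21. The peak names of the 3 lists of a day carry the same sample tag, and the labels do not say whether the lists came from separate animals. P-values therefore measure the spread between lists, which may be technical. Over regions called in every list, the chi-square per region of peak heights in tags was 0.417 to 0.444 between lists of a day. That is less than independent counting would give, and between days it was 0.965 to 1.18. Lists of a day may thus not be independent, which would make p-values too small, and this was not tested. Marker loci of CD8 T cells (7 genes, 60 regions) had 16 to 21, 43 to 47 and 42 to 48 regions called per list on days 4, 8 and 21, with a region at all 7 genes in every list.

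In unscaled calls per list, B cell loci had 0 to 1, 11 to 12 and 10 to 14 of 16 regions called on days 4, 8 and 21, myeloid and dendritic loci 5 to 6, 24 to 28 and 21 to 27 of 38, and endothelial and stromal loci 2 to 4, 20 to 24 and 20 to 23 of 34. NK cell loci had 6 to 9, 14 to 16 and 16 of 19 regions called, and melanoma loci 4 to 6, 8 to 9 and 10 to 12 of 13. Relative to list length, in the fit described below, 2 of 2 tested B cell genes (median log2 difference 1.74), 3 of 6 endothelial and stromal genes (median 0.92) and 2 of 5 myeloid and dendritic genes (median 0.33) were called higher on day 8 against day 4. Of the other markers, 1 of 3 NK cell genes was called higher and 2 lower, 1 of 3 melanoma genes lower, and 2 of 6 CD8 T cell genes lower (median −0.12). The melanoma gene was Pmel, which had 3 of 3 regions called in every list. Its value relative to list length could therefore only be lower. Of all tested genes, 11.7% were called higher and 21.7% lower between these days, with a median of −0.14. Between days 21 and 4, 2 of 2 B cell, 3 of 6 endothelial and stromal and 0 of 5 myeloid and dendritic genes were called higher. Then 1 of 3 NK cell genes was called higher and 1 lower, and 1 of 3 melanoma genes, again Pmel, and 1 of 6 CD8 T cell genes lower. Over all tested genes these shares were 11.3% higher and 21.5% lower. Ms4a1 of B cells, Lyz2 of myeloid cells, and Tyr, Tyrp1 and Sox10 of melanocytes had no region called in any list. The part of other cells in the values at Zeb1 and Zeb2 was not tested. Fewer cells with an open region and less opening per cell cannot be told apart in bulk lists.

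Zeb2 lies on chr2:44983512-45117442 on the minus strand and spans 133.9 kb. The next protein-coding genes are Gtdc1, 55.8 kb past its 3′ end, and Acvr2a, 3697 kb beyond its start, and the long noncoding gene Zeb2os lies inside its body at chr2:45111138-45114087. RefSeq lists 4 Zeb2 starts with a promoter window, and regions covered the outermost one and the innermost one. These 2 windows of 300 bases (GRCm38.p6, minus strand, 250 bases before the start and 50 after) are shown because regions lie over their starts. Capitals mark matches to motifs searched on both strands, a ZEB E-box (CACCTG), AP-1 (TGANTCA), RUNX (TGTGGT), T-box (AGGTGTGA), TCF/LEF (ATCAAAG) and a GC box (GGGCGG), and the first window holds none.
Zeb2 outermost start, chr2:45117393-45117692: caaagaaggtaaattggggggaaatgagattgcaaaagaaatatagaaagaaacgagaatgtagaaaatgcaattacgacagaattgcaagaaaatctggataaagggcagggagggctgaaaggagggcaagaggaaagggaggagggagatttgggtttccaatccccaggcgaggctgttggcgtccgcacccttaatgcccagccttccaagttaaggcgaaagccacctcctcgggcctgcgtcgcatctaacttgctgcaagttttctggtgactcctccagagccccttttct
Zeb2 innermost start, chr2:45110228-45110527: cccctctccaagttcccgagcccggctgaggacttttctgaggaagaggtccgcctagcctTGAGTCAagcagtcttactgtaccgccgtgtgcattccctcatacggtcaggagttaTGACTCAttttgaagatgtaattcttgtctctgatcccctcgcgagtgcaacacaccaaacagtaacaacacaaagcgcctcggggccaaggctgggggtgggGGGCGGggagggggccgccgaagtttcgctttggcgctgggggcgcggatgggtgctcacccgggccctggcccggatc

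The innermost window, 7.17 kb inside the gene, lay wholly in a called region. It held 2 AP-1 matches that begin 189 and 132 bases before the start and do not overlap, a motif found in 7.81% of 32851 RefSeq promoter windows of the same length. A GC box began 29 bases before the start, a motif found in 35.7% of windows. Its GC content was 60.7%, against 49.3% in the outermost window and a median of 52.7% over all windows. Of the outermost window, 76 bases lay in a called region. The remaining 2 starts, 4.16 and 4.19 kb inside, lay in no region, and their windows overlap and share the same single GC box. The ZEB E-box, RUNX, T-box and TCF/LEF motifs, found in 20.2%, 16.8%, 1.28% and 3.73% of windows, had no match in any of the 4 windows, which says only that these letters are not there.

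Zeb1 lies on chr18:5591327-5775468 and spans 184.1 kb. Its neighbors are Zfp438, 256.5 kb away, and Arhgap12, 248.98 kb away, and the long noncoding gene Gm10125 overlaps its start coordinate. Below, a region is named by the distance of its middle from the outermost start of Zeb2, positive toward and beyond the 3′ end, or from the start coordinate of Zeb1.

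On day 8, against day 4, Zeb2 had many more called regions. Lists called 9, 9 and 9 of its 12 regions on day 8, against 1, 1 and 3 on day 4. The groups did not overlap, which before scaling was so for 80.6% of the 7831 genes tested, with more calls on day 8. Covered sequence was 3.99 ± 0.426 kb on day 8 and 0.484 ± 0.418 kb on day 4 (SD, n = 3 lists each). Zeb1 had 8, 8 and 10 of its 10 regions called on day 8, against 4, 3 and 4 on day 4. Its covered sequence was 5.86 ± 0.299 kb on day 8 and 1.57 ± 0.476 kb on day 4.

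**Figure D1:**
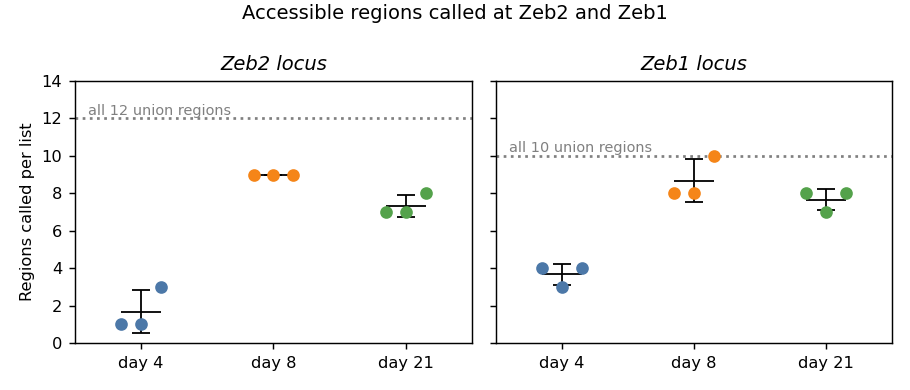
Regions called per list (vertical axis) on days 4, 8 and 21 at Zeb2 (left) and Zeb1 (right); points are the 3 lists of a day, bars the mean and SD, and dotted lines the number of union regions. Zeb2 had 1 to 3 regions on day 4, 9 on day 8 and 7 to 8 on day 21, and Zeb1 had 3 to 4, 8 to 10 and 7 to 8.

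Since day 8 lists are longer everywhere, counts were scaled to list length, as log2((regions called + 0.5) / relative list length), and fitted with limma over 7831 genes. On this scale Zeb2 rose by 0.95 ± 0.24 (SE) on day 8 against day 4 (limma, Benjamini-Hochberg adjusted p = 0.0134). In this comparison 11.7% of tested genes were called higher and 21.7% lower, and the value of Zeb2 was above that of 88.6% of them. Zeb1 gave −0.16 ± 0.12 (limma, adjusted p = 0.313), against a median of −0.14 over all genes. Had every Zeb1 region been called on day 8, its value would have been 0.04, so that on this scale it had almost no room to be higher.

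The Zeb2 call passed without any 1 of the 6 lists (limma, adjusted p of 0.0108 to 0.0459). It was lost when lists were cut to their 19499 strongest peaks (0.73, limma, adjusted p = 0.508, with no gene called and no region of either locus gained) and when only regions in gene bodies counted (0.32, limma, adjusted p = 0.558), where 7 of the 12 Zeb2 regions drop out. It also missed the threshold when only regions within 50 kb counted (1.32, limma, adjusted p = 0.0595).

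The log2 ratio of Zeb2 to Zeb1 regions was taken within a list and was not scaled. It can still depend on list length, since Zeb1 had little room above its day 8 counts, and this was not tested. The ratio was 0.16, 0.16 and −0.14 in day 8 lists, against −1.58, −1.22 and −0.36 in day 4 lists. The highest day 4 value, −0.36, came from the longest list of that day, with 22250 peaks. The difference was 1.12 (exact permutation test, two-sided, p = 0.1, adjusted over 3 comparisons 0.15), and 0.1 is the smallest p that 3 against 3 lists allow.

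Called in 3 of 3 lists on day 8 and in 0 of 3 on day 4 were 4 Zeb2 and 4 Zeb1 regions, 33.3% and 40.0% of each locus, beside 25.7% of all regions. None was called the other way round at either locus, beside 0.00953% of all regions. At Zeb2 these were the regions at +156.9, +140.3, +0.142 and −21.7 kb. At Zeb1 they were the regions at +89.2, +97.2 and +103.4 kb, all in the body, and at +228.7 kb, past the end.

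**Figure D2:**
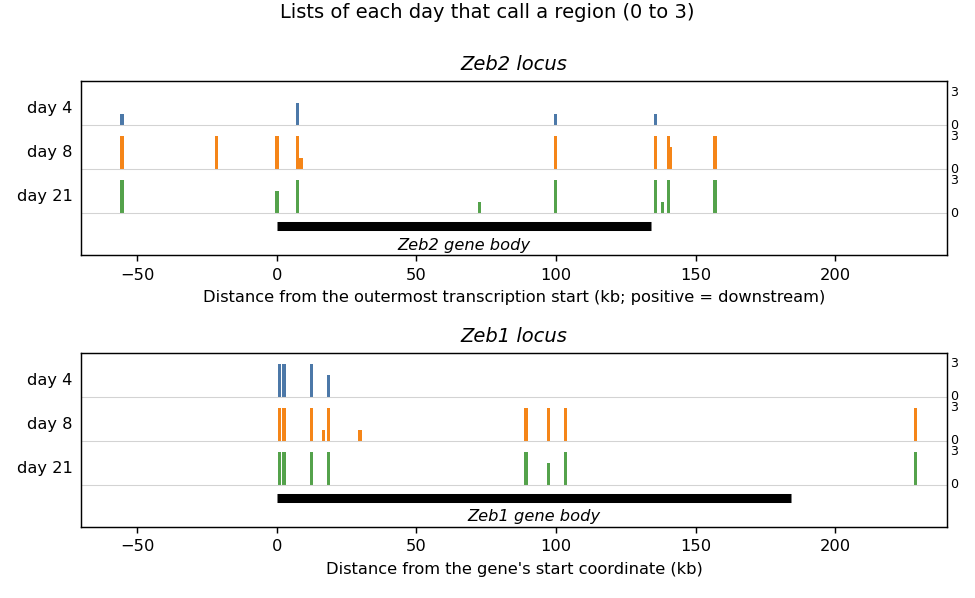
Number of lists of a day, 0 to 3, that call each region (bar height) along the Zeb2 (top) and Zeb1 (bottom) loci, by distance in kb; black bars are gene bodies. On day 4 no Zeb2 region was called in all 3 lists, while 3 Zeb1 regions near the start coordinate were.

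The region over the outermost Zeb2 start (chr2:45117132-45117468, +0.142 kb) was weak throughout. Its fold enrichment, which is the authors' summit value over the list's own local background, was not given on day 4, was 4.79, 3.48 and 4.39 on day 8, and was 4.02 and 3.86 in the 2 day 21 lists that called it. The region over the innermost start (chr2:45109385-45110546, +7.48 kb) was called in 2 of 3 lists on day 4, at 3.80 and 3.95. It had 4.89, 5.19 and 4.73 on day 8 and 5.47, 5.15 and 4.798 on day 21. Of the regions over a Zeb2 start, that over the innermost start was therefore the only one with any call on day 4. The day 4 peaks covered 200 and 472 of its 1162 bases, and whether they reach the start was not determined.

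Outside the body, the region at +156.9 kb (chr2:44960191-44960962), 22.6 kb past the 3′ end, was called in no day 4 list. Its fold enrichment was 8.16, 6.99 and 8.09 on day 8 and 7.88, 10.7 and 8.72 on day 21, and the days overlap. The region at +140.3 kb (chr2:44976965-44977340) was weaker, with no call on day 4, 3.97, 3.78 and 4.63 on day 8 and 3.82, 4.25 and 3.51 on day 21. The region at −21.7 kb (chr2:45138997-45139220) was called on day 8 alone, at 5.42, 5.35 and 4.41. The last 4 Zeb2 regions, at +140.8, +138.2, +72.5 and +8.63 kb, were called in at most 2 lists, all of them of a single day.

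Between 100 and 1000 kb, no region had its nearest protein-coding gene end at Zeb1 or Zeb2, and regions assigned to neighboring genes were not counted. Past the 3′ end of Zeb2, where Gtdc1 lies 55.8 kb away, none could, and around Zeb1 only in the inner part of this span. Only beyond the start of Zeb2 was the whole span open to such a region. Beyond the start of Zeb2 the next with its nearest end at the gene was chr2:46370758-46371567, 1253 kb away in the gap before Acvr2a, called in all 9 lists. The next after it, chr2:46443782-46444216, was called in no list on day 4 and in 2 of 3 on each of days 8 and 21.

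**Figure D3:**
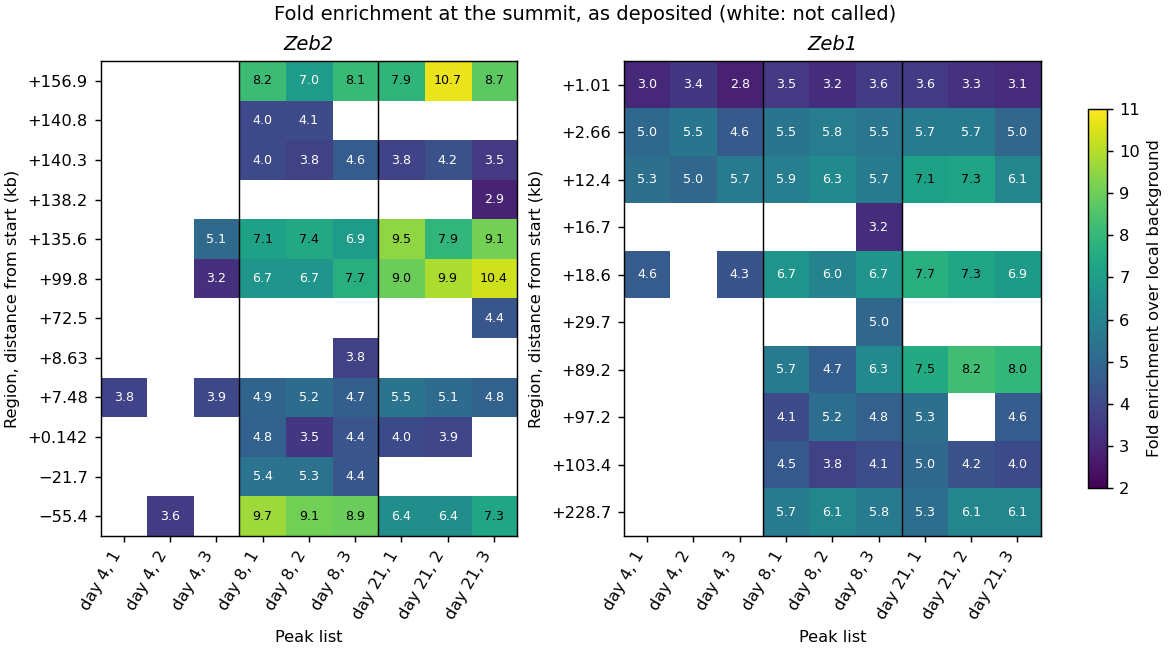
Fold enrichment over local background (color and number) of each Zeb2 (left) and Zeb1 (right) region, by distance from the start in kb (rows), in the 9 lists (columns); white means not called. The highest value, 10.7, is at Zeb2 +156.9 kb on day 21, and Zeb2 −55.4 kb is weaker in the 3 day 21 lists than in the 3 day 8 lists.

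At Zeb1, the wide region over the start coordinate (chr18:5591169-5593504, +1.01 kb) was called in every list at a low fold enrichment, 2.82 to 3.45 on day 4, 3.19 to 3.58 on day 8 and 3.10 to 3.57 on day 21. Beside it, the region at +2.66 kb (chr18:5593690-5594280) had the highest summits of either locus, 36, 40 and 45 tags on day 4, 72, 81 and 79 on day 8, and 79, 78 and 81 on day 21. Its fold enrichment was 5.01, 5.48 and 4.55 on day 4, 5.49, 5.82 and 5.52 on day 8, and 5.74, 5.70 and 4.98 on day 21. The local background under those summits was 6.38, 6.48 and 9.10 tags on day 4, 12.3, 13.1 and 13.5 on day 8 and 12.9, 12.9 and 15.5 on day 21. Summits and background thus both stood higher on the later days, and fold enrichment moved little.

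Farther into Zeb1, the region at +12.4 kb (chr18:5603149-5604386) was called in every list, with summits of 24, 24 and 32 tags on day 4, 43, 48 and 48 on day 8, and 53, 52 and 55 on day 21. The region at +18.6 kb (chr18:5609401-5610451) was called in 2 of 3 lists on day 4, at a fold enrichment of 4.63 and 4.34, and in every later list, at 6.68, 6.03 and 6.69 on day 8 and 7.68, 7.30 and 6.92 on day 21. Of the regions with no call on day 4, that at +97.2 kb (chr18:5688294-5688784) had 4.09, 5.24 and 4.77 on day 8 and 5.31 and 4.61 in the 2 day 21 lists that called it. That at +103.4 kb (chr18:5694258-5695191) had 4.47, 3.78 and 4.14 on day 8 and 5.02, 4.24 and 4.04 on day 21. The only Zeb1 region outside the body, at +228.7 kb (chr18:5819744-5820249), had 5.68, 6.13 and 5.76 on day 8 and 5.26, 6.15 and 6.15 on day 21, so that none of these 3 separated the later days. The regions at +16.7 and +29.7 kb were each called in the third day 8 list alone.

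Regions called in every list of 2 days were ranked in each list by fold enrichment, and the ranks, as normal scores, were fitted with limma. Of 15122 regions ranked for day 8 against day 4, 11.1% passed as higher and 12.4% as lower. The +2.66 kb Zeb1 region stood at percentiles 7.48, 10.0 and 7.85 on day 8, against 32.7, 44.1 and 22.3 on day 4, and fell by 0.93 ± 0.25 score units (SE; limma, adjusted p = 0.0192). The Zeb1 region at +12.4 kb stood at 10.4, 14.3 and 8.95 on day 8, against 40.1, 31.2 and 51.4 on day 4, and fell by 0.99 ± 0.24 (limma, adjusted p = 0.013). Its fold enrichment was 5.85, 6.27 and 5.66 on day 8, against 5.32, 4.96 and 5.75 on day 4, so the fall was in rank alone. Ranked by summit tags in place of fold enrichment, a setting chosen after seeing the data, neither of these regions passed (limma, adjusted p = 0.704 and 0.151). The call at +2.66 kb was also lost by −log10 p (−0.54, limma, adjusted p = 0.127), with peaks covering at least 50% of the region (limma, adjusted p = 0.0536) and without any 1 day 8 list (limma, adjusted p of 0.0606 to 0.0776), and that at +12.4 kb without the first or the third day 8 list (limma, adjusted p = 0.0521 and 0.0635). The third ranked Zeb1 region, at +1.01 kb, gave −0.20 ± 0.26 (limma, adjusted p = 0.596), and no Zeb2 region could be ranked against day 4.

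On day 21, against day 8, no difference in the number of called regions passed the test at either locus, while within Zeb2 a region in the body rose in rank. Lists called 7, 7 and 8 Zeb2 regions on day 21 and 9, 9 and 9 on day 8, without overlap, as at 4.23% of genes with fewer calls on day 21, and 8, 7 and 8 Zeb1 regions on day 21 and 8, 8 and 10 on day 8. Covered sequence at Zeb2 was 3.52 ± 0.305 kb on day 21 and 3.99 ± 0.426 kb on day 8, and at Zeb1 5.77 ± 0.711 kb on day 21 and 5.86 ± 0.299 kb on day 8 (SD, n = 3 lists each). Relative to list length Zeb2 gave −0.27 ± 0.24 (SE; limma, adjusted p = 0.984) and Zeb1 −0.15 ± 0.12 (limma, adjusted p = 0.972). Neither passed, and 0% of genes were called in either direction. Over all 7831 genes, 496 had an unadjusted p under 0.05, and limma without a floor on the spread called 2.

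The ratio of Zeb2 to Zeb1 was −0.18, 0 and 0 in day 21 lists, against 0.16, 0.16 and −0.14 in day 8 lists, a difference of −0.12 (exact permutation test, two-sided, p = 0.3). Lost between these days was 1 Zeb2 region, at −21.7 kb, 8.33% of the locus beside 1.09% of all regions. None was gained, beside 1.02% of all regions, and at Zeb1 none was gained or lost.

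Of 34555 regions ranked for day 21 against day 8, 0.394% passed as higher and 0.214% as lower. The Zeb2 region at +99.8 kb (chr2:45017198-45018001), deep in the body, was among those that rose. Its fold enrichment was 8.97, 9.91 and 10.4 on day 21, against 6.70, 6.68 and 7.69 on day 8, with summits of 39, 41 and 50 tags on day 21 against 20, 24 and 27 on day 8. It stood at percentiles 75.4, 83.2 and 88.1 on day 21, against 47.0, 46.3 and 60.02 on day 8, so the days did not overlap, as for 10.3% of regions that stood higher on day 21, and its score rose by 0.91 ± 0.18 (SE; limma, adjusted p = 0.0435). On day 4 it was called in 1 of 3 lists, at a fold enrichment of 3.197. The call was lost when any 1 list was left out (limma, adjusted p of 0.0763 to 0.127), and it held by −log10 p (adjusted p = 0.0017) and by summit tags (adjusted p = 8.6e-05). More regions passed under those rankings: 4.19% as higher and 3.36% as lower by −log10 p, and 10% and 9.28% by summit tags.

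The Zeb2 region at −55.4 kb (chr2:45172430-45173251), upstream of the gene, had lower values on day 21. Its fold enrichment was 6.44, 6.44 and 7.34 on day 21, against 9.67, 9.09 and 8.94 on day 8. On day 4 the second list alone called it, at 3.59. It stood at percentiles 44.1, 43.7 and 57.0 on day 21, against 80.5, 75.3 and 74.1 on day 8, without overlap, as for 10.9% of regions that stood lower on day 21. The score difference was −0.77 ± 0.17 (SE; limma, adjusted p = 0.0575), short of the threshold by fold enrichment and past it by −log10 p (adjusted p = 0.0173), where 3.36% of regions passed as lower, and by summit tags (adjusted p = 0.0073), where 9.28% did. The region with the highest mean percentile at Zeb2 was thus +99.8 kb on day 21, at 82.2, and −55.4 kb on day 8, at 76.6. The other upstream region, at −21.7 kb, was the one lost on day 21.

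**Figure D4:**
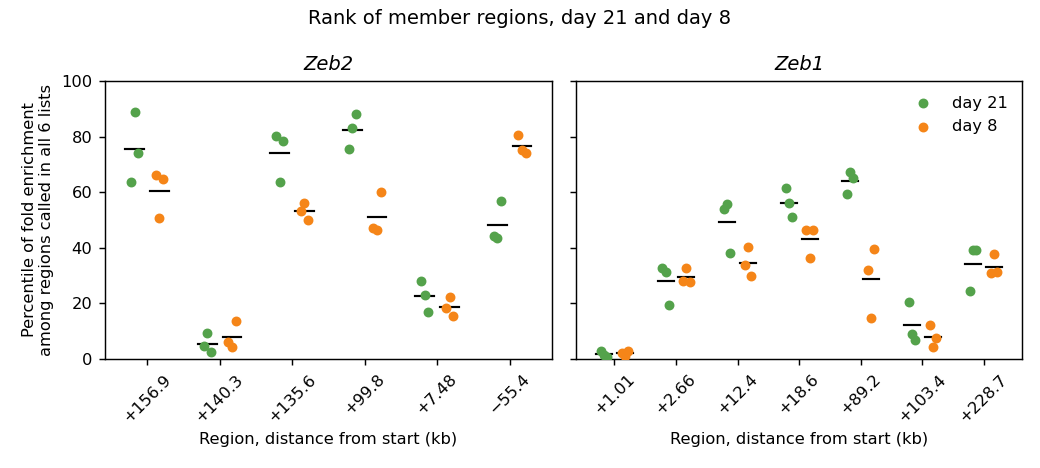
Percentile of fold enrichment among the 34555 regions called in all 6 lists of days 21 and 8 (vertical axis), for each ranked Zeb2 (left) and Zeb1 (right) region by distance from the start; green points are day 21 lists, orange points day 8 lists, and black lines means. At Zeb2 +99.8 kb the day 21 points lie above the day 8 points, and at Zeb2 −55.4 kb they lie below.

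The region just past the 3′ end of Zeb2, at +135.6 kb (chr2:44981648-44982101), had a fold enrichment of 9.51, 7.91 and 9.14 on day 21, against 7.14, 7.42 and 6.93 on day 8. On day 4 the third list alone called it, at 5.11. Its score difference was 0.58 ± 0.18 (SE; limma, adjusted p = 0.136), which passed by −log10 p (adjusted p = 0.0032) and by summit tags (adjusted p = 3.9e-05), beside 4.19% and 10% of regions passing as higher. Of the other ranked Zeb2 regions, +156.9 kb gave 0.47 ± 0.22 (limma, adjusted p = 0.309), +7.48 kb 0.13 ± 0.24 (adjusted p = 0.838) and +140.3 kb −0.20 ± 0.27 (adjusted p = 0.772).

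At Zeb1, none of 7 ranked regions passed. The nearest was at +89.2 kb (chr18:5680159-5680840), in the body, with a fold enrichment of 7.51, 8.24 and 7.95 on day 21, against 5.74, 4.71 and 6.28 on day 8. It had no call on day 4. It stood at percentiles 59.2, 67.3 and 65.1 on day 21, against 32.1, 14.7 and 39.7 on day 8, without overlap. Of all 34555 ranked regions, 10.3% stood higher on day 21 without overlap. The region at +89.2 kb gave 0.95 ± 0.23 (SE, limma, adjusted p = 0.0726). By −log10 p and by summit tags it passed (limma, adjusted p = 0.0235 and 0.0084), beside the same 4.19% and 10% of regions. It had the highest mean percentile of Zeb1 on day 21, 63.9, while on day 8 that was the region at +18.6 kb, at 43.0. The other 6 Zeb1 regions gave score differences of −0.09 to 0.38.

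The comparisons of day 21 with day 4 share the day 4 lists with those above. Lists called 7, 7 and 8 Zeb2 regions on day 21, against 1, 1 and 3 on day 4, a lack of overlap found before scaling at 78.6% of genes. The scaled value of Zeb2 rose by 0.68 ± 0.24 (SE; limma, adjusted p = 0.0498), while 11.3% of genes were called higher and 21.5% lower. This call lies at the threshold and was lost without any of 5 of the 6 lists, the adjusted p ranging from 0.0245 without the third day 4 list to 0.13. Of 18 alternatives in all, 5 kept it. Zeb1 had 8, 7 and 8 regions on day 21, against 4, 3 and 4 on day 4, and its value of −0.31 ± 0.12 (limma, adjusted p = 0.0736) could not have exceeded 0.05. The ratio of Zeb2 to Zeb1 was higher by 1.00 on day 21 than on day 4 (two-sided exact permutation p = 0.1, adjusted 0.15).

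Regions gained on day 21 against day 4 numbered 2 at Zeb2 (+156.9 and +140.3 kb) and 3 at Zeb1 (+89.2, +103.4 and +228.7 kb), 16.7% and 30.0% of each locus beside 25.3% of all regions. None was lost, beside 0.00794% of all. By rank, 12.5% of 15121 regions passed as higher and 13.7% as lower. The Zeb1 region at +2.66 kb fell by 0.98 ± 0.26 (SE; limma, adjusted p = 0.0148), and it did not pass by −log10 p (−0.57, limma, adjusted p = 0.121), by summit tags (limma, adjusted p = 0.803) or without the third day 21 list (limma, adjusted p = 0.0804). The Zeb1 regions at +12.4 and +1.01 kb gave −0.56 ± 0.25 and −0.23 ± 0.26 (limma, adjusted p = 0.109 and 0.544).

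Over all 9 lists, regions called in every list made up 0 of 12 at Zeb2 and 3 of 10 at Zeb1, beside 24% of all regions. Regions with no call on day 4 made up 8 of 12 at Zeb2 and 6 of 10 at Zeb1, beside 62.9%. Among 1293 genes with at least 10 regions, those most like Zeb2 in the share of regions called, by mean absolute difference over the 9 lists, were Grik4 at 1.85 percentage points, Creb5 at 3.70, Chn2 at 3.94, Bcl2l14 at 4.21 and Ano10 at 4.26. Those most like Zeb1 were Laptm5 at 3.02, Heg1 at 3.81, Tomm20 at 3.92, Ctif at 4.0 and Clec16a at 4.02. Zeb1 ranked 987th in likeness to Zeb2, at 16.7 percentage points.

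Genes of the ZEB pathway were counted in the same fit, over 4 lists of 45 genes of which 41 had enough regions. On day 8 against day 4, 5 were called higher and 9 lower of 41, near the 11.7% and 21.7% of all genes, with a median of −0.17 beside −0.14 over all genes. On day 21 against day 4, 4 were called higher and 10 lower, beside 11.3% and 21.5% of all genes, with a median of −0.16 beside −0.15, and on day 21 against day 8 none was called. All values below are relative to list length. Without that division the median of all genes was 1.17 on day 8 against day 4. Every called fall then turned positive, except that of Tcf3 on day 21, which came to 0. A fall below thus means fewer calls than list length would give, not fewer regions called. Genes with a large share of their regions called on day 4 had, like Zeb1, little or no room to be higher. With lists cut to equal length no gene was called, and the values of Bcl6 and Tcf12 on both days, and of Tbx21 on day 21 against day 4, turned negative. Leaving out 1 list ended the day 8 calls of Tgfbr2 (adjusted p up to 0.12), Eomes (up to 0.111), Tgfbr1 (up to 0.0532) and Bcl2 (0.0555 without the third day 8 list). It also ended the day 21 calls, against day 4, of Tgfb1 (up to 0.143), Ep300 (up to 0.112), Il7r (up to 0.107), Tgfbr3 (up to 0.107) and Id3 (0.0636 without the first day 21 list). A pseudocount of 1 ended the day 8 calls of S1pr5 (0.70, limma, adjusted p = 0.0544) and Tgfbr2 (adjusted p = 0.0742). With peaks covering at least 50% of a region, the day 8 calls of S1pr5 (0.49, limma, adjusted p = 0.397), Bcl6 (adjusted p = 0.0883), Smad4, Smad7 and Tcf3 did not pass, nor, on day 21 against day 4, those of Tbx21 (0.47, limma, adjusted p = 0.405), Bcl6, Id3, Il7r, Tcf3 and Tgfb1. Bcl6 also missed the threshold in gene bodies alone in both comparisons and, on day 8, within 250 kb (limma, adjusted p = 0.0645, 0.0878 and 0.0670).

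Among factors of the same CD8 T cell decision (12 tested), 3 rose and 3 fell on day 8 against day 4, beside the 11.7% and 21.7% of all genes, with a median of 0.03 against −0.14 over all genes. Tbx21, which encodes T-bet, had 6, 4 and 4 of its 6 regions called on day 8, against 0, 0 and 0 on day 4, and rose by 2.04 ± 0.39 (SE; limma, adjusted p = 0.0040). On day 21 it had 5, 3 and 3, a rise of 1.73 ± 0.39 against day 4 (limma, adjusted p = 0.0088) and −0.31 ± 0.39 against day 8 (limma, adjusted p = 0.987). The E protein gene Tcf12 rose by 0.84 and Bcl6, a repressor of effector genes, by 0.83 (limma, adjusted p = 0.00087 and 0.0114). Tcf7, which encodes TCF-1, fell by 0.54, Eomes by 0.36 and the E protein gene Tcf3 by 1.14 (limma, adjusted p = 0.0025, 0.0362 and 0.0049). Before scaling, Tcf7 had 12, 11 and 12 of 15 regions called on day 8, against 7, 6 and 7 on day 4. Eomes had 9, 11 and 10 of 18, against 5, 4 and 6, and Tcf3 2, 3 and 2 of 3, against 2, 2 and 2. Between days 21 and 4, Bcl6 rose by 0.91 and Tcf12 by 0.68, and Tcf7 fell by 0.45, Tcf3 by 1.29 and Id3, an inhibitor of E proteins, by 0.65. On day 21 Tcf7 had 12, 12 and 13 regions called, and Tcf3 had 2, 2 and 2, as on day 4. Id3 had 5, 6 and 7 of 9, against 4, 4 and 3 on day 4.

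In TGF-β signalling (11 of 12 tested), 1 rose and 4 fell on day 8 against day 4, beside the same shares of all genes, with a median of −0.27 against −0.14 over all genes. Tgfbr2, the ligand-binding receptor, rose by 0.25 ± 0.08 (SE; limma, adjusted p = 0.0456). The receptor gene Tgfbr1 fell by 0.70, Smad4, the shared Smad, by 0.67, and the inhibitors Smad7 and Ski by 0.73 and 0.81 (limma, adjusted p = 0.0187, 0.0123, 0.0036 and 0.0030). Smad3 gave 0.33 ± 0.15 on day 8 against day 4 (limma, adjusted p = 0.103) and −0.36 ± 0.15 on day 21 against day 8 (limma, adjusted p = 0.720). By day 21, against day 4, the coreceptor gene Tgfbr3 rose by 0.72, while Ski fell by 0.68, Smad7 by 0.58, Tgfbr1 by 0.80 and the ligand gene Tgfb1 by 0.72. Smad7 had 11, 11 and 11 of its 11 regions called on day 21, against 5, 7 and 8 on day 4. Its value could thus not have been higher. Ski had 10, 10 and 13 of 13 on day 21, against 7, 8 and 6 on day 4. Tgfbr1 had 3, 3 and 3 of 4, against 2, 2 and 2, and Tgfb1 3, 2 and 3 of 3, against 2, 2 and 1. Tgfbr2 then gave 0.20 (limma, adjusted p = 0.0886) and Smad3 −0.03.

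Of the partners and corepressors, 6 of 9 were tested. None passed on day 8 against day 4, where their median was −0.24 beside −0.14 over all genes, and on day 21 against day 4 only Ep300, a histone acetyltransferase, fell, by 0.56 (limma, adjusted p = 0.0347). Ep300 had 3, 4 and 4 of its 4 regions called on day 21, against 2, 2 and 2 on day 4, so the fall was relative to list length alone. Ctbp2, a corepressor gene with too few regions for the fit, had 0, 0 and 0 of 2 called on day 4, 2, 1 and 1 on day 8, and 1, 1 and 1 on day 21.

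Among genes tied to ZEB factors in T cells or epithelia (12 tested), 1 rose and 2 fell on day 8 against day 4, beside the 11.7% and 21.7% of all genes, with a median of 0.02. S1pr5, an egress receptor of effector cells, rose by 1.5 ± 0.41 (SE; limma, adjusted p = 0.0187) on day 8 against day 4, with 3, 3 and 3 of 3 regions called on day 8 against 0, 0 and 0 on day 4. Gata3 and Bcl2 fell by 0.72 and 0.48 (limma, adjusted p = 0.0029 and 0.0129). Compared with day 4, on day 21 Gata3 fell by 0.71 and Il7r, the interleukin-7 receptor gene, by 0.56 (limma, adjusted p = 0.0034 and 0.0347). Of 8 Gata3 regions, 4, 5 and 6 were called on day 4, and 8, 7 and 8 on each of days 8 and 21. Of 4 Il7r regions, 2, 2 and 2 were called on day 4 and 4, 3 and 4 on day 21. Nearly all regions of both genes were thus called on day 21. Il2 had 1, 1 and 2 of 5 regions called on day 4, 3, 4 and 4 on day 8, and 3, 3 and 3 on day 21. It gave −0.08 on day 8 against day 4 (limma, adjusted p = 0.800), −0.23 on day 21 against day 8 (adjusted p = 0.987) and −0.31 on day 21 against day 4 (adjusted p = 0.313). 

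The miR-200 genes, whose products pair with both Zeb mRNAs, were described by the nearest regions only. Their mature sequences (RefSeq, GRCm38.p6) are shown because 2 seeds, bases 2 to 8 in capitals, divide the family, and each gene cluster holds both.
miR-200b-3p: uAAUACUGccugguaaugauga
miR-200c-3p: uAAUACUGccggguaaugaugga
miR-429-3p: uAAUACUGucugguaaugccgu
miR-200a-3p: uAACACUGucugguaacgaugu
miR-141-3p: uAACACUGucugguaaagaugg

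Mir200c and Mir141 lay 2.52 and 2.93 kb from a region assigned to Ptpn6 (chr6:124720912-124721297) called in 0 of 3 lists on day 4 and in 3 of 3 on days 8 and 21. Mir200b, Mir200a and Mir429 lay 11.9, 12.6 and 13.6 kb from a region assigned to Ttll10 (chr4:156067605-156068034) called in 0, 2 and 3 of 3 lists on days 4, 8 and 21. Mir205, which also targets both mRNAs, lay 6.49 kb from a region called in 1 day 21 list alone. No called region thus overlapped any of the 6 microRNA genes.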

How the data were processed

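ATAC-seq libraries of days 4, 8 and 21 (3 each, from the titles, since the time point and genotype tags hold each other's values) came as 1 narrowPeak list per library. The submitters' processing notes name mm10 and the tools deepTools 2.0, MACS2, Picard and BWA 0.7.15. How reads were filtered or shifted for Tn5, and with which settings peaks were called, is not stated there. The authors called peaks per sample. For each peak the deposited lists give the peak caller's score, its fold enrichment over background at the summit, and its p-value and q-value as −log10. Every peak had a q of 0.05 or less. Fold enrichment is relative to local background, which open neighbors raise.

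On chromosomes 1 to 19 and X, 353295 peaks were merged wherever they shared a base, and a region was called in a list with a peak on it. Gene positions came from RefSeq for GRCm38.p6, the assembly of mm10, with 21631 protein-coding genes; all 86 symbols in the gene lists matched. Summit tags and local background were recovered from fold enrichment and −log10 p (tolerance 0.001). Genes with at least 3 regions were fitted over all 9 lists with limma 3.58.1 (trend, robust; R 4.3.3), with the variance kept at or above that of 1 region called at random. Ranks were fitted over the 6 lists of 2 days. P-values were adjusted by Benjamini-Hochberg at 0.05, and both fits were tested on simulated data, in which the gene fit recovered few of the changed genes between days 21 and 8.

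Regions gained, lost, over a gene end, past the rank threshold or of highest rank at a locus were to be given in full, as were pathway genes past the threshold and Tbx21, Il2, Tgfbr2, Smad3 and Ctbp2. The members and all gene lists were chosen with earlier results of these data known. Alternatives covered scaling, list length, thresholds, distances, overlap, the value ranked and left-out lists. The remaining steps and figures used scipy 1.17.1, numpy 2.4.6, matplotlib 3.10.9 and pandas 2.3.3 in Python 3.11.15.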

Additional observations from a re-analysis of the deposited data

How the results depend on the processing

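The Zeb2 rise on day 8 against day 4 passed in 15 of 18 alternatives and that on day 21 against day 4 in 5 of 18. The 15 include the fit without division by list length and the 6 fits that each left out 1 list. Lists cut to equal length were among those where it did not pass. Without division by list length, 6188 of 7831 genes were called on day 8 against day 4 and 6035 on day 21 against day 4, all of them higher. Values then turned positive on day 8 against day 4 for Zeb1 (1.14), Bcl2 (0.83), Eomes (0.94), Gata3 (0.58), Il2 (1.22), Ski (0.49), Smad4 (0.63), Smad7 (0.57), Tcf3 (0.16), Tcf7 (0.77) and Tgfbr1 (0.61). Between days 21 and 4 they did so for Zeb1 (0.98), Ep300 (0.73), Gata3 (0.58), Id3 (0.64), Il2 (0.98), Il7r (0.73), Ski (0.61), Smad3 (1.26), Smad7 (0.71), Tcf7 (0.84), Tgfb1 (0.57) and Tgfbr1 (0.49). With lists cut to the strongest peaks, 0 genes were called in each of these comparisons. On day 8 against day 4 Zeb2 came to 0.73, Bcl6 to −0.86, Tcf12 to −0.66, Il2 to 0.16, Smad4 to 0.0776 and Tgfbr1 to 0.24. Between days 21 and 8 Zeb2 came to 0.16, Zeb1 to 0.40, Il2 to 0.65 and Tgfbr2 to 0.21. Between days 21 and 4 Zeb2 came to 0.89, Zeb1 to 0.0331, Bcl6 to −1.39, Tcf12 to −0.82, Tbx21 to −0.0878, Ep300 to 0.0740, Il2 to 0.81, Ski to 0.0412 and Tgfbr1 to 0.0740. Regions gained there were 0 at Zeb2 and 0 at Zeb1 on day 8 against day 4, 1 at Zeb2 on day 21 against day 8, and 0 at Zeb1 on day 21 against day 4.

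Within 50 kb, Zeb2 gave 1.32 on day 8 and 1.02 on day 21 against day 4 without passing, and Tgfbr2 −0.0090 on day 21 against day 4. Within 250 kb, Zeb2 gave 0.68 on day 21 against day 4 (limma, adjusted p = 0.0501), and Tgfbr2 −0.0454 on day 8 and −0.0917 on day 21 against day 4. In gene bodies alone, 1646 genes were called on day 8 and 1551 on day 21 against day 4. Zeb2 then gave 0.32 and 0.21, Zeb1 passed as lower on day 21 against day 4 (−0.50) and Tgfbr2 gave −0.0179 there. Zeb2 had 1 region gained on day 8 and 0 on day 21 against day 4, 0 lost on day 21 against day 8, and a ratio to Zeb1 higher by 0.0616 there. With at least 6 regions per gene, 1239 and 1191 genes were called on days 8 and 21 against day 4, and with no minimum 6412 and 6463, where Zeb2 gave 0.68 on day 21 without passing; the number of genes tested differs by construction. With peaks covering at least 50% of a region, Zeb1 gave 0.44, Eomes 0.22, Gata3 0.20 and Il2 0.53 on day 8 against day 4, and Zeb1 0.24, Gata3 0.0174, Il2 0.29, Smad3 0.30 and Smad7 0.0127 on day 21 against day 4. Tgfbr2 gave 0.0382 and the ratio 0.0890 on day 21 against day 8, Zeb2 had 5 regions gained on day 21 against day 4, and 1624 and 1808 regions passed by rank on days 8 and 21 against day 4. A pseudocount of 1 gave 0.43 for Zeb2, which did not pass, and −0.39 for Zeb1, which did, on day 21 against day 4. A q of 0.01 gave 0.68 for Zeb2 there (limma, adjusted p = 0.0508), and without the floor 2 genes were called on day 21 against day 8.

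By −log10 p, 1942, 2609 and 1965 regions passed by rank on day 8 against day 4, day 21 against day 8 and day 21 against day 4, and by summit tags, chosen after seeing the data, 2334, 6670 and 2359. Scores that changed sign were Zeb2 +140.3 kb (0.19 by −log10 p, 0.39 by summit tags), Zeb1 +228.7 kb (−0.0321 and −0.0673) and Zeb1 +2.66 kb (0.0213 by summit tags), all on day 21 against day 8. Over regions called in all 9 lists, 97 passed on day 21 against day 8.

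Leaving out 1 list gave 1733 to 2363 genes called on day 8 against day 4 and 1535 to 2279 on day 21 against day 4. Zeb2 ranged over 0.50 to 1.03, Zeb1 over −0.39 to −0.23 and Smad3 over −0.14 to 0.17 on day 21 against day 4, and Il2 over −0.19 to 0.10 on day 8 against day 4. Regions passing by rank numbered 1727 to 3619 on day 8 against day 4, 2 to 49 on day 21 against day 8 and 2145 to 3969 on day 21 against day 4. The score of Zeb1 +1.01 kb ranged over −0.34 to 0.0184 on day 8 against day 4 and −0.21 to 0.0155 on day 21 against day 8, where that of Zeb1 +2.66 kb ranged over −0.12 to 0.0738 and that of Zeb1 +228.7 kb over −0.0468 to 0.17. Zeb2 lost 1 to 2 regions on day 21 against day 8 and gained 2 to 4 on day 21 against day 4.

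With the replicate number as a block, Zeb2 kept 0.68 on day 21 against day 4 without passing (limma, adjusted p = 0.0842), and 102 regions passed by rank on day 21 against day 8, Zeb2 +99.8 kb no longer among them (limma, adjusted p = 0.0506). Same-numbered lists of different days had correlations of deviations of −0.00452 to 0.0310, against −0.0269 to 0.0242 for lists of other numbers. By this measure 6 of 9 lists correlated best with their own number. The labels do not say what a number marks, and these values cannot decide it. The cause of these changes was not tested. At the smallest background, the lowest called summit had 10 to 11 tags on day 4, 8 to 9 on day 8 and 9 to 10 on day 21, so a summit below that was not called there.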
